A study of Populus ussuriensis with 18 samples.

Results

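Structural proteins strengthen plant cell walls, and the transcripts described here carry names of 3 such classes. They were measured in roots of Populus ussuriensis kept in 6% polyethylene glycol (PEG). They were 3 proline-rich protein transcripts (f9p60_914_11928, named proline-rich 33 kDa extensin-related protein, and f3p60_1008_29997 and f2p60_1006_30003, both named repetitive proline-rich cell wall protein 2), 1 extensin-3 transcript (f6p60_1064_29342) and 1 glycine-rich family protein transcript (f2p60_619_34924). These 5 of the 12994 transcripts in the expression table were chosen by their name and by their change from 0 h in these libraries. Their changes are given as a description, and the threshold calls listed for them are not read as a test.

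Roots of 3-week-old wild type seedlings from tissue culture were harvested at 0 h and at 5 times in liquid medium with 6% PEG (6 and 12 h, then 24, 48 and 120 h), with 3 libraries at each time. PEG lowers the water potential around the root, which imposes drought stress without soil. Each library came from the pooled roots of several seedlings. The 0 h roots were the only control and no seedlings kept in PEG-free liquid were analysed here, so the effects of PEG, of the transfer to liquid and of time cannot be told apart. Values are FPKM, fragment counts scaled by transcript length and library size, so levels of different transcripts can be set side by side. In bulk roots, fewer cells of a type and less RNA per cell cannot be told apart.

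Repetitive proline-rich proteins and extensins are rich in proline that is largely hydroxylated after synthesis. They are secreted, and many become cross-linked into the wall by peroxidases, which stiffens it. Glycine-rich wall proteins form another structural class, often found with lignified vascular tissue, although the name glycine-rich family protein also covers proteins with other roles.

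The summed FPKM of a library ranged between 1067374 and 1159874, and between 865 and 1016 transcripts were listed at 0. The third library of 48 h stood apart, with 478 of 12080 tested transcripts at least 1 log2 unit from both other libraries of its time, against 115 to 286 in the other 17 libraries. Both NRT2 nitrate transporter transcripts, which mark roots, were detected, with sums of 554.63 to 586.98 FPKM at 0 h, 115.56 to 124.46 FPKM at 6 h, 28.96 to 32.23 FPKM at 12 h, 48.16 to 49.19 FPKM at 24 h, 90.4 to 324.24 FPKM at 48 h and 337.72 to 569.53 FPKM at 120 h. Photosystem and chlorophyll a-b binding transcripts mark green tissue, and 18 were found in the annotation at hand, which covers 1057 of the 12994 transcripts. These 18 summed to 2292.1 to 2390.3 FPKM at 0 h, 995.52 to 1092.17 FPKM at 6 h and 1594.58 to 1662.76 FPKM at 12 h. Later sums were 2125.73 to 2439.07 FPKM at 24 h, 3062.7 to 3378.87 FPKM at 48 h and 3424.35 to 4492.26 FPKM at 120 h. None of the 18 was at 0 in all libraries of a time. These marker sums moved with time in PEG, and their part in the results below was not tested.

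The 3 proline-rich transcripts ranked between 3479 and 6701 of 12994 by mean level before the treatment, and between 40 and 184 at 6 h. The transcript f9p60_914_11928 had 43.95, 48.14 and 49.37 FPKM at 0 h, 1837.11, 1774.05 and 1805.99 FPKM at 6 h, and 1292.66, 1361.60 and 1280.55 FPKM at 12 h. It then had 1106.56, 1198.88 and 1175.04 FPKM at 24 h, 383.48, 407.27 and 363.07 FPKM at 48 h, and 162.48, 121.85 and 117.41 FPKM at 120 h. Every neighbouring pair of times in its order of levels (6, 12, 24, 48, 120 and 0 h) had ranges that did not overlap. How many of all transcripts had such an order was not counted. By mean level it ranked 40 of 12994 transcripts at 6 h, against 4575 at 0 h.

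The first repetitive proline-rich transcript, f3p60_1008_29997, varied far more between libraries of 1 time. It had 23.57, 45.95 and 11.16 FPKM at 0 h, 643.61, 787.14 and 762.44 FPKM at 6 h, and 638.30, 617.65 and 698.14 FPKM at 12 h. At the later times it had 866.98, 686.62 and 740.16 FPKM at 24 h, 189.15, 308.59 and 329.03 FPKM at 48 h, and 174.56, 65.68 and 70.74 FPKM at 120 h. Its mean was highest at 24 h, yet the ranges of 24, 6 and 12 h overlapped, and the first library of 120 h lay far above the other 2 of that time.

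The second repetitive proline-rich transcript, f2p60_1006_30003, was highest at 6 h. It had 72.94, 48.29 and 77.15 FPKM at 0 h, 1380.79, 1277.52 and 1275.76 FPKM at 6 h, and 879.23, 962.98 and 809.32 FPKM at 12 h. It had 928.90, 1140.88 and 1022.27 FPKM at 24 h, 372.99, 270.34 and 579.37 FPKM at 48 h, and 127.26, 128.13 and 119.86 FPKM at 120 h. The ranges of 24 and 12 h overlapped, and its highest 48 h value was that of the third library, the one that stood apart.

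**Figure D1:**
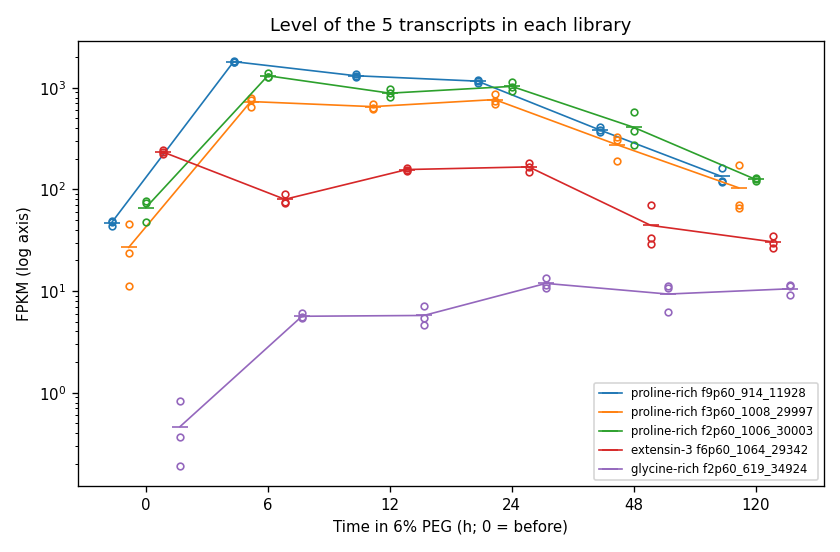
FPKM (log axis) of the 5 transcripts in each library (circles) at 0 h and after 6 to 120 h in 6% PEG, with lines through the mean of 3 libraries at each time. The 3 proline-rich transcripts lie between 11.16 and 77.15 FPKM at 0 h and at 617.65 FPKM or more at 6, 12 and 24 h, extensin-3 lies lower at 6, 48 and 120 h than at 12 and 24 h, and the glycine-rich transcript stays at 13.38 FPKM or less.

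The 3 proline-rich transcripts had the same best nucleotide match, 1 poplar gene model, so reads of that gene may have been divided among them when FPKM were estimated. Their sum was therefore also followed. It was 140.46, 142.38 and 137.68 FPKM at 0 h, 3861.51, 3838.71 and 3844.19 FPKM at 6 h, and 2810.19, 2942.23 and 2788.01 FPKM at 12 h. It was 2902.44, 3026.38 and 2937.47 FPKM at 24 h, 945.62, 986.20 and 1271.47 FPKM at 48 h, and 464.30, 315.66 and 308.01 FPKM at 120 h. The mean was 27.5 times the 0 h mean at 6 h, 20.3 times at 12 h, 21.1 times at 24 h, 7.62 times at 48 h and 2.59 times at 120 h, and only the 24 and 12 h ranges overlapped in the order of levels. The sum made up 0.352% ± 0.00555 of all FPKM at 6 h and 0.0127% ± 0.00029 at 0 h (SD, n = 3 each).

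The sum was steadier between libraries than its parts at the early times. At 0 h the coefficient of variation (SD over mean, n = 3) was 65.6% for f3p60_1008_29997, 23.6% for f2p60_1006_30003, 4.55% for those 2 added together and 1.69% for all 3. At 6 h it was 10.5%, 4.59%, 1.00% and 0.309% in the same order of quantities. At 48 and 120 h the sum varied by 16.6% and 24.3%, and adding the 2 repetitive transcripts gave 28.6% and 27.7%. This pair was no steadier than f3p60_1008_29997 at 48 h (27.4%). It was steadier than f2p60_1006_30003 at 48 h (38.6%) and f3p60_1008_29997 at 120 h (59.3%). At 48 and 120 h some single transcripts were steadier than the sum of all 3. These were f9p60_914_11928, with 5.75% at 48 h and 18.5% at 120 h, and f2p60_1006_30003, with 3.63% at 120 h.

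The split among the 3 transcripts also differed between times. The share of f9p60_914_11928 in the sum was 31.3 to 35.9% at 0 h, 46.2 to 47.6% at 6 h, 45.9 to 46.3% at 12 h and 38.1 to 40.0% at 24 h. At 48 h it spanned 28.6 to 41.3%, with the lowest share in the third library. The share of f3p60_1008_29997 spanned 8.11 to 32.3% at 0 h and 20.8 to 37.6% at 120 h.

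**Figure D2:**
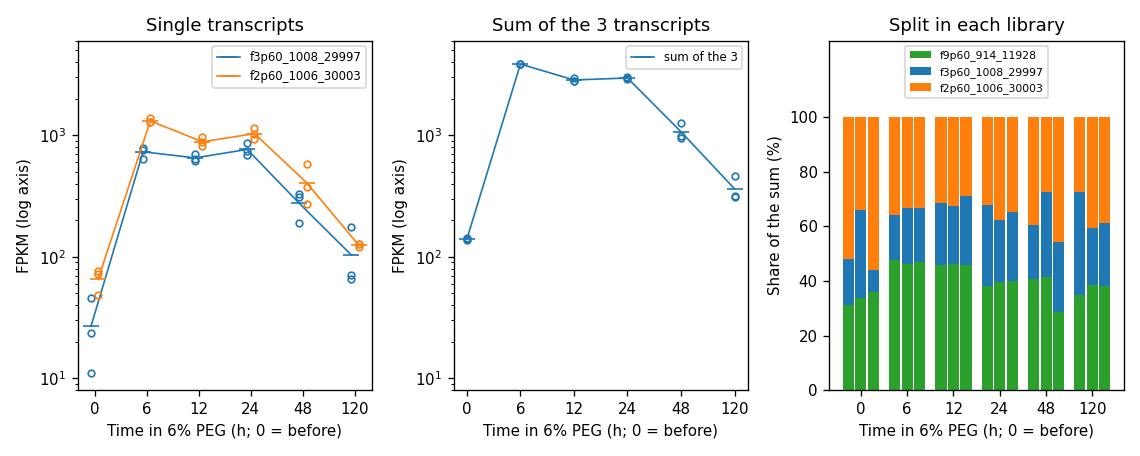
Left and middle, FPKM (log axis) per library of the 2 repetitive proline-rich transcripts and of the sum of all 3 proline-rich transcripts, with lines through the means of 3 libraries. Right, the share of each transcript in that sum for each library, by time; the share of f9p60_914_11928 lies between 45.9 and 47.6% in the 6 libraries of 6 and 12 h and between 31.3 and 35.9% at 0 h.

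Extensin-3, f6p60_1064_29342, moved the other way from the proline-rich transcripts at first and came back in part before it dropped again. It had 243.13, 234.10 and 222.62 FPKM at 0 h, 72.84, 90.65 and 75.97 FPKM at 6 h, and 155.13, 163.92 and 151.06 FPKM at 12 h. It had 183.55, 166.45 and 149.18 FPKM at 24 h, 28.75, 33.51 and 70.37 FPKM at 48 h, and 35.15, 26.52 and 29.69 FPKM at 120 h. In the order of levels (0, 24, 12, 6, 48 and 120 h), the ranges of 24 and 12 h and those of 48 and 120 h overlapped. The third library of 48 h was again the exception, with a level more than that of both other 48 h libraries added together.

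Of the other transcripts named extensin-3, f4p60_1442_25648 and f2p60_1680_23978 had the same best protein match as f6p60_1064_29342. The first averaged 89.7 ± 5.34 FPKM at 0 h, 123 ± 17.3 at 6 h, 175 ± 6.11 at 12 h, 124 ± 8.69 at 24 h, 79.2 ± 6.57 at 48 h and 57.1 ± 6.16 at 120 h (SD, n = 3 each). The second was far more abundant, with 2042 ± 52.1 FPKM at 0 h, 2835 ± 315 at 6 h, 4064 ± 261 at 12 h, 2788 ± 441 at 24 h, 2232 ± 259 at 48 h and 1534 ± 210 at 120 h. Both were highest at 12 h and above their 0 h range at 6 h, where f6p60_1064_29342 was below its own. Their log2 fold changes were 0.44 and 0.47 at 6 h and 0.96 and 0.99 at 12 h, and neither passed the fold minimum at any time against 0 h. A further transcript named extensin-3, f3p60_3851_573, was lower like f6p60_1064_29342, with -1.21 at 6 h and -1.36 at 120 h. It is left out of the sum that follows.

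The share of f6p60_1064_29342 in its sum with f4p60_1442_25648 and f2p60_1680_23978 was 9.58 to 10.3% at 0 h, 2.51 to 2.72% at 6 h and 1.77 to 1.95% at 120 h. The summed level was 2365 ± 51.4 FPKM at 0 h, 3038 ± 330 FPKM at 6 h and 4395 ± 263 FPKM at 12 h (SD, n = 3 each). It was 3079 ± 459 FPKM at 24 h, 2355 ± 240 FPKM at 48 h and 1622 ± 217 FPKM at 120 h. Most of it was f2p60_1680_23978, with 86.0 to 86.8% at 0 h and 93.0 to 95.6% at 48 h. Fitted in place of its parts after the data were seen, this sum was called in no comparison, with -0.38 between 48 and 24 h (SE 0.12). The sum was thus above its 0 h level at 6, 12 and 24 h, where f6p60_1064_29342 was below its own. The difference between its change and theirs was not tested.

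**Figure D3:**
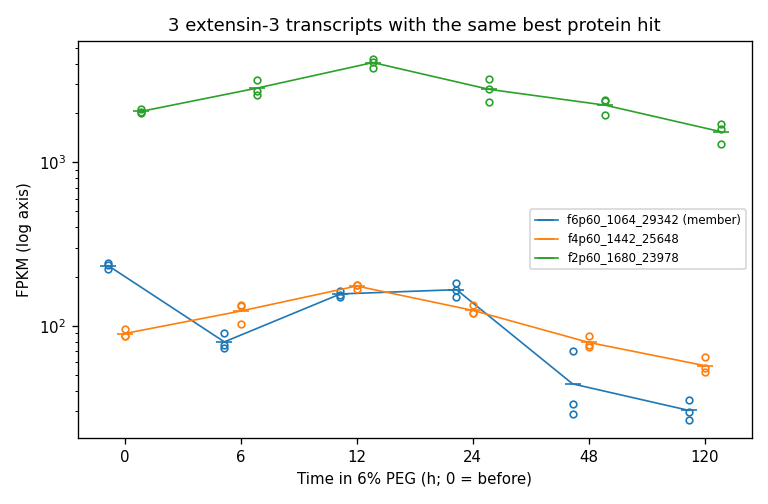
FPKM (log axis) of 3 extensin-3 transcripts with the same best protein match, per library (circles), with lines through the mean of 3 libraries at each time in 6% PEG. f6p60_1064_29342 is lower at 6 h (72.84 to 90.65 FPKM) than at 0 h (222.62 to 243.13 FPKM), while both others are higher at 6 h than at 0 h and highest at 12 h.

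The glycine-rich transcript, f2p60_619_34924, was close to the lowest measurable level before the treatment and stayed at a low level throughout. It had 0.83, 0.19 and 0.37 FPKM at 0 h, 5.38, 5.53 and 6.03 FPKM at 6 h, and 4.65, 7.15 and 5.45 FPKM at 12 h. It had 13.38, 10.83 and 11.45 FPKM at 24 h, 11.09, 10.77 and 6.15 FPKM at 48 h, and 11.12, 9.08 and 11.37 FPKM at 120 h. Among 249 transcripts of 599 to 639 bases, close to it in length, the smallest value above 0 was 0.17, 0.17 and 0.34 FPKM in the 3 libraries of 0 h. No ratio of FPKM is given against such low 0 h values. In the order of levels (24, 120, 48, 12, 6 and 0 h) the ranges of all neighbouring PEG times overlapped, and the low 48 h value, under the highest of 12 h, came from the third library.

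Against 0 h, a transcript was called where limma's adjusted p was under 0.05 and the log2 fold change of FPKM + 1 was at least 1 in size. All 5 transcripts passed the low-value filter (at least 1 FPKM in 3 libraries), and the glycine-rich transcript did so only through its PEG libraries. At 6 h, 4 of the 5 were called higher and 1 lower, with 12.3% of all tested transcripts called. At 12 h it was 4 higher and none lower (9.32% of all called), at 24 h 4 and none (6.24%), at 48 h 4 and 1 (5.08%) and at 120 h 3 and 1 (4.74%). The 5 were picked for these changes, so nothing is read from the counts. The ranges of all 5 lay outside the 0 h range at every PEG time, as did those of 68.8% of all tested transcripts at 6 h and 45.2% at 48 h.

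The sizes differed among the proline-rich transcripts. The log2 fold change of f9p60_914_11928 was 5.23 at 6 h, 4.77 at 12 h, 4.59 at 24 h, 3.00 at 48 h and 1.47 at 120 h (SE 0.09 each). For f3p60_1008_29997 it was 4.92, 4.76, 4.98, 3.48 and 1.97 at the same times (SE 0.42), and for f2p60_1006_30003 it was 4.32, 3.75, 3.97, 2.56 and 0.94 (SE 0.21). Extensin-3, f6p60_1064_29342, had -1.54, -0.57, -0.49, -2.48 and -2.91 (SE 0.23). The glycine-rich transcript had 2.21, 2.21, 3.16, 2.80 and 2.99 (SE 0.20), values that depend on the pseudocount since its 0 h level was under 1 FPKM.

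The differences between times in PEG use no 0 h library, but the 5 transcripts had been chosen with all times in view. These differences too are given with their SE as a description. The calls named below come from limma's thresholds, and as with the counts against 0 h nothing is read from them. How many of all tested transcripts had ranges apart between times in PEG was not counted. Between 12 and 6 h none of the 5 passed both of limma's thresholds (4.13% of all tested did). For f9p60_914_11928, f2p60_1006_30003 and extensin-3 only the fold minimum was missed. Extensin-3 was 0.97 ± 0.23 (SE) higher at 12 h than at 6 h on the log2 scale, just under the fold minimum, and all 3 of its 12 h values lay above all 3 of 6 h. The proline-rich f9p60_914_11928 had a log2 fold change of -0.46 (SE 0.09), f2p60_1006_30003 had -0.57 (SE 0.21) and f3p60_1008_29997 had -0.16 (SE 0.42). The glycine-rich transcript had 0.01 (SE 0.20).

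Between 24 and 12 h none passed both thresholds either (3.47% of all did), and 1 missed only the fold minimum. That was the glycine-rich transcript, with a log2 fold change of 0.94 (SE 0.20), and all 3 of its 24 h values lay above all 3 of 12 h. The 3 proline-rich transcripts and extensin-3 had changes between -0.18 and 0.23.

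Between 48 and 24 h, 4 of the 5 were lower past both thresholds, with 1.81% of all tested transcripts called. The log2 fold change was -1.59 for f9p60_914_11928 (SE 0.09), -1.50 for f3p60_1008_29997 (SE 0.42) and -1.40 for f2p60_1006_30003 (SE 0.21). Extensin-3 had -2.00 (SE 0.23), and the glycine-rich transcript had -0.35 (SE 0.20). The ranges of 48 and 24 h did not overlap for the first 4 transcripts, a trait not counted over all tested transcripts. Without the third library of 48 h the values of these 4 were -1.55, -1.65, -1.69 and -2.38, all still past both thresholds. The call of f3p60_1008_29997 was lost without the first or the third library of 24 h or the first of 48 h, with values of -1.41, -1.52 and -1.25.

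Between 120 and 48 h the 3 proline-rich transcripts were lower past both thresholds and the other 2 were not called, with 1.25% of all transcripts called. The log2 fold change was -1.53 for f9p60_914_11928 (SE 0.09), -1.51 for f3p60_1008_29997 (SE 0.42) and -1.63 for f2p60_1006_30003 (SE 0.21). Extensin-3 had -0.42 (SE 0.23) and the glycine-rich transcript 0.19 (SE 0.20). The call of f3p60_1008_29997 was lost without the second or the third library of 48 h or the second or the third of 120 h, with values of -1.41, -1.36, -1.26 and -1.31, and with a replicate block. With only these 2 times in the fit the calls of both repetitive transcripts were lost. The summed proline-rich level, fitted in place of its parts after the data were seen, had -1.48 between 48 and 24 h and -1.57 between 120 and 48 h (SE 0.13).

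Over the whole of the PEG period, between 120 and 6 h, 4 of the 5 were lower past both thresholds, while 13.8% of all transcripts were called in this comparison. The log2 fold change was -3.76 for f9p60_914_11928 (SE 0.09), -2.95 for f3p60_1008_29997 (SE 0.42) and -3.38 for f2p60_1006_30003 (SE 0.21). Extensin-3 had -1.36 (SE 0.23). The glycine-rich transcript had 0.79 (SE 0.20), below the fold minimum, with all 3 of its 120 h values above all 3 of 6 h.

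**Figure D4:**
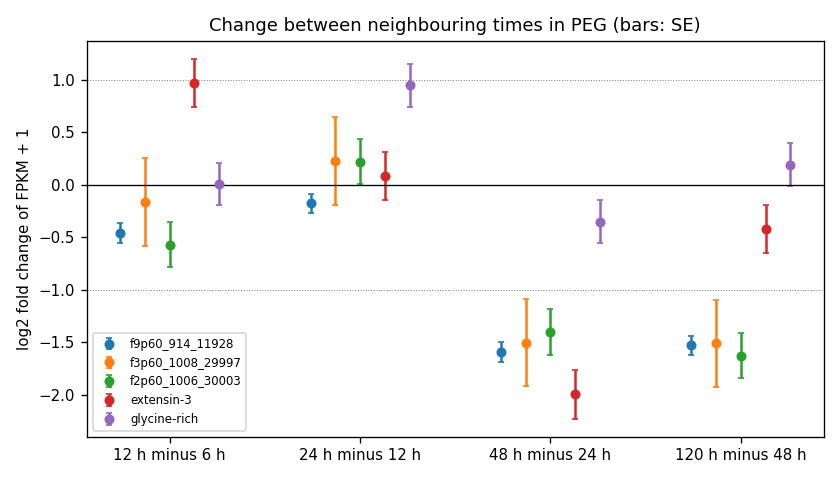
Log2 fold change of FPKM + 1 between neighbouring times in PEG for the 5 transcripts, later minus earlier time, with bars of 1 SE and dotted lines at the fold minimum of 1. The proline-rich transcripts lie between -1.40 and -1.63 in the last 2 comparisons, extensin-3 has -2.00 between 48 and 24 h, and the glycine-rich transcript has its highest value, 0.94, between 24 and 12 h.

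The 3 proline-rich transcripts followed each other closely over the 18 libraries, and the other 2 did so less. Pearson's r of log2(FPKM + 1), across libraries that share 6 times, was 0.98 between f9p60_914_11928 and f2p60_1006_30003, 0.96 between f9p60_914_11928 and f3p60_1008_29997 and 0.94 between both repetitive transcripts. Extensin-3 had r between -0.003 and 0.098 with the proline-rich transcripts, and -0.59 with the glycine-rich transcript. The glycine-rich transcript had r of 0.56, 0.64 and 0.53 with f9p60_914_11928, f3p60_1008_29997 and f2p60_1006_30003. These are descriptions of the time course and carry no test. Reads of 1 gene may be divided among the 3 proline-rich transcripts, which were also chosen by their change from 0 h. Their r with each other therefore cannot show that separate genes moved together.

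Of 746 tested transcripts with a named protein in the annotation at hand, which covers mainly transcripts that the study listed as changed, those most like the proline-rich sum were peroxidase 4 (f2p59_1311_26810, r = 0.985), transcription factor MYB58 (f3p60_1224_9210, r = 0.978) and 4-coumarate--CoA ligase 1 (f2p60_2057_4103, r = 0.971). Peroxidase 4 averaged 8.24, 163, 180, 143, 49.1 and 13.7 FPKM at the 6 times, in order from 0 h to 120 h. MYB58, a regulator of lignin genes in Arabidopsis, averaged 2.14, 43.5, 33.3, 25.5, 9.33 and 5.92 FPKM at those times. The ligase, an enzyme of phenylpropanoid synthesis, averaged 35.0, 103, 114, 122, 67.8 and 48.8 FPKM.

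Among the same named transcripts, extensin-3 was most like the ethylene-responsive transcription factor RAP2-3 (f3p60_1327_26651, r = 0.911), peroxidase 5 (f4p60_1269_8729, r = 0.905) and a protein of the protease inhibitor, seed storage and lipid transfer family (f4p60_914_11906, r = 0.893). Among them the glycine-rich transcript was most like ethylene-responsive transcription factor 5 (f2p60_1376_26205, r = 0.954), protein FAM210B (f3p60_928_11978, r = 0.938) and non-specific lipid-transfer protein 4-like (f2p60_872_31557, r = 0.885). With unnamed transcripts included, these ranked 2, 3 and 7 for extensin-3 and 3, 10 and 32 for the glycine-rich transcript, of 12075 transcripts. Each r was over the same 18 libraries.

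Other wall protein transcripts did not share 1 course. A list of 17 further transcripts of 6 wall protein classes came from the study's own table of changed transcripts. It is therefore not independent evidence of a direction. Its values are a description, and its calls are not read as a test. All 17 passed the low-value filter, 3 of them (f2p46_752_33126, f2p60_763_13381 and f4p60_920_31025) only through PEG libraries, mainly those of 24 and 48 h. Of the 17, 15 were called at 1 or more times against 0 h. The share of all tested transcripts called at 1 or more times was not counted, so nothing is read from this. At 6 h, 1 was called higher and 7 lower, and the median log2 fold change was -0.64, against 12.3% called and a median of 0.01 over all tested transcripts. At 12 h none was higher and 4 were lower, although the median was 0.48 (all: 9.32% called, median -0.04). At 24 h 6 were higher and 1 lower, with a median of 0.44 (all: 6.24% called, median 0.00). At 48 h it was 2 and 4 (median -0.18; all: 5.08% called, median -0.02), and at 120 h 1 and 4 (median -0.44; all: 4.74% called, median -0.04). The 48 h count of 6 was 3 without the first or the second library of that time and 9 without the third.

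Among the extensins, the extensin-2-like transcript f2p60_3860_557 was lower at all 5 times, with 314 ± 17.8 FPKM at 0 h, 82.4 ± 9.74 FPKM at 6 h and 105 ± 23.6 FPKM at 120 h (SD, n = 3 each). Its log2 fold change at 6 h was -1.92 (SE 0.19). The extensin-3 transcript f3p60_3851_573 was lower at 6, 48 and 120 h, with -1.36 at 120 h (SE 0.18). Both had the same best nucleotide match, so reads may be divided between them.

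The 3 hydroxyproline-rich glycoprotein transcripts were lower at 6 h and were called higher at 12 h than at 6 h. The transcript f2p60_769_32887 averaged 77.5 ± 1.21 FPKM at 0 h, 31.5 ± 2.16 FPKM at 6 h and 28.6 ± 3.34 FPKM at 120 h (SD, n = 3 each), and f2p60_651_14402 had a log2 fold change of -1.47 at 120 h. f2p48_691_33944 had -1.07 at 6 h. Between 12 and 6 h the 3 had 1.76, 1.78 and 1.61, in the order named. The first 2 share their best nucleotide match.

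The glycine-rich family protein f2p60_628_14757, another member of that class, was higher at 24, 48 and 120 h. It averaged 234 ± 49.4 FPKM at 120 h, against 50.4 ± 4.18 FPKM at 0 h (SD, n = 3 each), a log2 fold change of 2.17 (SE 0.13). The glycine-rich cell wall structural protein-like transcript f2p28_510_36372 was higher at 24 h only, with 1.28 (SE 0.28). Of the arabinogalactan proteins, peptide 22 (f2p60_539_36024) was higher at 6 h with 1.56, whereas lysine-rich protein 18 (f2p23_978_30306) and peptide 13-like (f2p60_717_33567) were lower at 12 h with -1.21 and -1.17.

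Both 14 kDa proline-rich proteins named DC2.15 and both vegetative cell wall proteins gp1 were called higher at 24 h, 3 of these 4 having passed the filter only through PEG libraries. f3p60_670_34256 had 12.9 ± 1.93 FPKM at 0 h, 2.90 ± 0.61 FPKM at 6 h, 2.65 ± 0.91 FPKM at 12 h and 33.7 ± 3.94 FPKM at 24 h (SD, n = 3 each). Its log2 fold change at 24 h was 1.33 (SE 0.24), and at 12 h it was -1.95. f2p46_752_33126 was listed at 0 in all libraries of 0 h and 120 h and had 2.7, 3.61 and 2.91 FPKM at 24 h. The gp1 transcripts f2p60_763_13381 and f4p60_920_31025 averaged 4.61 ± 0.36 and 2.53 ± 0.57 FPKM at 24 h, against 0.16 ± 0.14 and 0.12 ± 0.14 FPKM at 0 h, and share their best nucleotide match.

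Between neighbouring times in PEG, the list had 3 called higher and none lower between 12 and 6 h (4.13% of all tested transcripts called) and 6 and 2 between 24 and 12 h (3.47%). It had none and 2 between 48 and 24 h (1.81%), and none and 1 between 120 and 48 h (1.25%). Between 120 and 6 h 2 were higher and 2 lower (13.8%). The higher calls between 24 and 12 h include f2p46_752_33126, f2p60_763_13381 and f4p60_920_31025, which passed the low-value filter only through PEG libraries. Of these, f2p46_752_33126 is also the single call between 120 and 48 h, and f2p60_763_13381 is among those lower between 48 and 24 h. Nothing is read from these counts. The count of 2 between 48 and 24 h was 1 without any 1 library of 24 h, and the single call between 120 and 48 h was lost without the third library of 24 h, the first or second of 48 h, or the second or the third of 120 h.

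**Figure D5:**
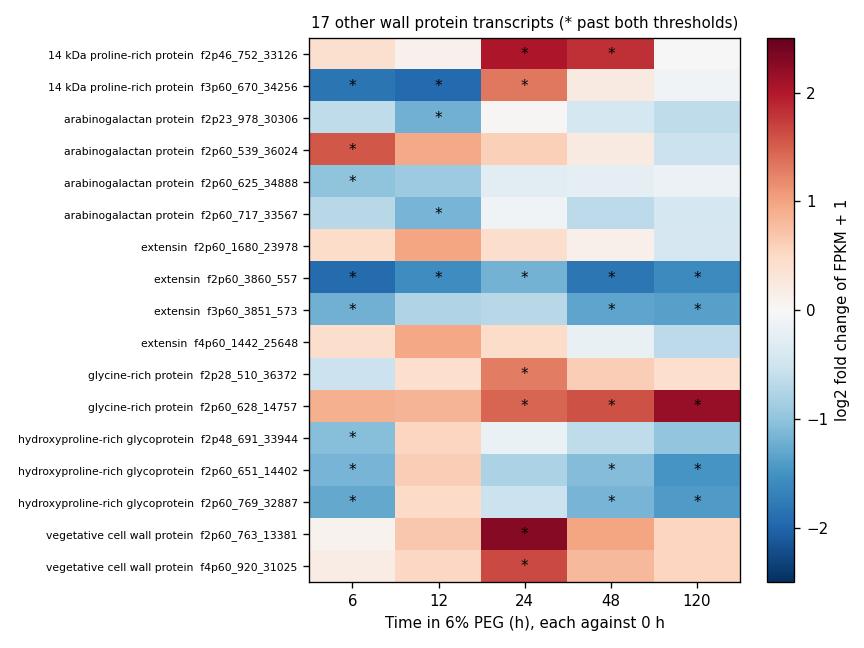
Log2 fold change of FPKM + 1 against 0 h (colour scale) of 17 other wall protein transcripts (rows, with class) at the 5 times in PEG; a star marks an adjusted p under 0.05 with a change of at least 1. Of the 6 classes, the 14 kDa proline-rich proteins alone have both stars of lower level at 6 h and stars of higher level at 24 h, and the extensin-2-like transcript f2p60_3860_557 is starred at all 5 times.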

How the data were processed

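Roots were sequenced as paired-end Illumina libraries. The authors deposited FPKM per full-length PacBio transcript, estimated with RSEM; per the labels, RSEM 1.2.31 and HTSeq 0.6.0 were used. The reference was the study's own transcript set, with no genome coordinates, and read counts were not used here, so the depth behind each value is unknown. The 18 columns carry a letter and digits: C was read as 0 h and the first digit of T as the order of the PEG times, and 0 columns were left unused. This reading matched the times named in the study's own table of changes, which holds the authors' fold changes. Otherwise that table was used for names and to draw the wall protein list.

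Transcripts with at least 1 FPKM in 3 libraries (12080 of 12994) were fitted as log2(FPKM + 1), which understates changes of low transcripts, in limma 3.58.1 (R 4.3.3, robust trended moderation, 12 residual degrees of freedom, all times in 1 fit). P-values were Benjamini-Hochberg adjusted per comparison over all tested transcripts. A call required both a change of 1 or more log2 units in size and an adjusted p under 0.05. The scripts were tested on simulated data. Tables were made with Python 3.11.15 and pandas 2.3.3.

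The members, the wall protein list and the tests were chosen with earlier results of these data known. The text names the 5 transcripts, up to 3 called transcripts per wall protein class with the largest change, and the 3 named transcripts most like each pattern. The labels do not say whether libraries came from separate cultures, so SEs and calls reflect the spread between these libraries. The alternatives were other pseudocounts, no low-value filter, other scalings, a replicate block, other moderation, only the compared times and leaving out each library. Sequences of the transcripts were not used here.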

Additional observations from a re-analysis of the deposited data

How the results depend on the processing

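No log2 fold change of the 5 transcripts changed sign past a threshold under any alternative. With a pseudocount of 0.1, 1 of the 5 was called between 24 and 12 h (the glycine-rich transcript, 1.05), and the wall list had 1 call between 48 and 24 h and 0 between 120 and 48 h. With a pseudocount of 5, the wall list had 3 calls at 24 h against 0 h, 3 between 24 and 12 h, 0 between 48 and 24 h and 0 between 120 and 48 h, and the glycine-rich transcript had 0.96 at 6 h and 0.97 at 12 h, under the fold minimum. With median-ratio scaling, 1 of the 5 was called between 12 and 6 h (extensin-3, 1.03), and the summed proline-rich level at 6 h was 3776 FPKM, or 3906 FPKM with equal library sums, against 3848 FPKM as deposited. With only the 2 times compared in the fit, 1 of the 5 was called between 120 and 48 h (f9p60_914_11928), f3p60_1008_29997 was not called at 120 h against 0 h, and the wall list had 3 calls at 48 h against 0 h, 1 between 48 and 24 h and 0 between 120 and 48 h. The causes were not tested.

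Leaving out 1 library at a time gave 0 to 1 calls among the 5 between 12 and 6 h (1 without the second library of 6 h), 0 to 1 between 24 and 12 h (1 without the second of 12 h or of 24 h), 3 to 4 between 48 and 24 h, 2 to 3 between 120 and 48 h and 4 to 5 at 120 h against 0 h. The extra call at 120 h was f2p60_1006_30003, without the first or the third library of 0 h (1.02 and 1.06). For the wall list the ranges were 3 to 9 at 48 h against 0 h, 1 to 3 between 48 and 24 h and 0 to 1 between 120 and 48 h.

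Replicate numbers did not pair the libraries: the correlation of deviations between same-numbered libraries of different times was -0.128 to 0.102 over 45 pairs, and 1 of 18 libraries correlated best with its own number. With the replicate block, f3p60_1008_29997 between 120 and 48 h had -1.51 and was not called, and no other call of the 5 changed. FPKM without counts limit what can be said of the glycine-rich transcript at 0 h. Reads that may have been divided limit the single proline-rich and extensin transcripts.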

Other observations

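The third library of 48 h also stood apart in other wall protein transcripts. The hydroxyproline-rich glycoprotein transcript f2p48_691_33944 had 119.79 and 121.14 FPKM in the first 2 libraries of 48 h and 322.77 FPKM in the third, f2p60_651_14402 had 15.74, 16.14 and 42.17 FPKM, and f2p60_769_32887 had 23.18, 25.31 and 67.48 FPKM. Its values for these 3 lay above the range of 24 h and that of 120 h. The 14 kDa proline-rich transcript f2p46_752_33126 had 6.09 and 5.39 FPKM in the first 2 libraries of 48 h and was listed at 0 in the third.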
